A study of Mus musculus with 7 samples.

Results

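The 37 genes described here encode adhesion molecules of the synapse, which were taken by gene symbol from the 46333 genes of the count files. They fall into 11 families and were compared between the 3 cre+ and the 4 cre- libraries made from isolated mouse neurons. All 37 were found, and all passed the filter on low counts that left 21542 genes in the test. The families are neurexins (Nrxn2, Nrxn3), neuroligins (Nlgn1, Nlgn3), LRRTM proteins (Lrrtm1 to Lrrtm4), netrin-G ligands (Lrrc4, Lrrc4b, Lrrc4c), IL1RAPL proteins (Il1rapl1, Il1rapl2), receptor tyrosine phosphatases (Ptprd, Ptprs, Ptprf), SLITRK proteins (Slitrk1 to Slitrk5), SALM proteins (Lrfn1 to Lrfn5), SynCAM proteins (Cadm1 to Cadm4), Ncam1, Ncam2, L1cam and Nectin1 as a group, and FLRT proteins (Flrt1 to Flrt3).

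The libraries came from adult female littermates on a C57BL/6 background. All mice were il4ra fl/fl, so both alleles of Il4ra, the gene for the alpha chain of the interleukin-4 receptor, carried sites that Cre recombinase joins. The cre+ mice also carried Syn cre, a transgene that expresses Cre from the synapsin 1 promoter in neurons and removes exons 7 to 9 of Il4ra there, while cre- mice lacked it and kept the receptor. The comparison addresses how loss of the receptor in neurons relates to neuronal transcripts. Whole brains were dissociated, and microglia, oligodendrocytes and astrocytes were removed with magnetic beads. Endothelial cells are not among the targets the study names for this depletion. The study assessed its isolates by flow cytometry, with a stain for endothelial cells among others, and describes them as mostly neuronal. Purity by flow cytometry is a share of cells, while the marker levels below are of RNA, so these are unlike measures.

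Synapses form and are specified by adhesion molecules that reach across the cleft. On the presynaptic side stand neurexins and the receptor phosphatases of the LAR type, and each binds several postsynaptic families. Neuroligins and LRRTM proteins bind neurexins, while SLITRK, SALM and IL1RAPL proteins and Lrrc4b bind the LAR-type phosphatases. SynCAM, NCAM and nectin proteins are immunoglobulin-type adhesion molecules that bind copies of themselves or of their relatives on the other cell, and FLRT proteins bind latrophilins and Unc5 receptors. Many of these pairs can induce a synapse when one partner is shown to a neuron in culture.

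Libraries held 68213223 to 94376841 counts in total, and the counts of the members ran from 33 to 88700. Of the 37 members, 36 had at least 100 counts in every library. Il4ra had a mean of 27.5 CPM (SD 2.70, n = 3) in the cre+ group and 23.8 CPM (SD 4.08, n = 4) in the cre- group, where CPM are counts scaled to the size of the library. That count covers the whole gene, so it does not check the label for a deletion of a few exons. Exons of 20 members overlap those of another gene, and no source used here gives the use of strand in counting. Defining markers of neurons were detected in every library, but so were those of other cell types. The summed level of 15 endothelial markers ran from 16523 to 23847 CPM in cre+ and from 11026 to 15341 CPM in cre- libraries, above that of 20 pan-neuronal genes without a synaptic role in every library (2135 to 3882 CPM and 3691 to 5561 CPM). In bulk RNA, fewer neurons in a library and less of a transcript per neuron cannot be told apart.

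Most of the adhesion genes had lower levels in the cre+ libraries after TMM scaling, which sets libraries equal over all genes, and 15 of them turned to above 0 when libraries were scaled to pan-neuronal genes instead. The log2 fold change (cre+ minus cre-, edgeR with TMM scaling) was below 0 for 34 of the 37 members, where 54% of all tested genes were below 0. The median over the members was -0.60 against -0.04 over all tested genes. Of the members, 21 had a value of -0.5 or lower, and the share of all tested genes at that level is not given. The values ran from -1.08 for Lrrc4c to 0.16 for Ptprf. In 11 of the 37 members every cre+ library was below every cre- library, and the share of all tested genes with that pattern was 9.72%. The opposite pattern was seen in 0 members and 8.94% of all tested genes.

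**Figure D1:**
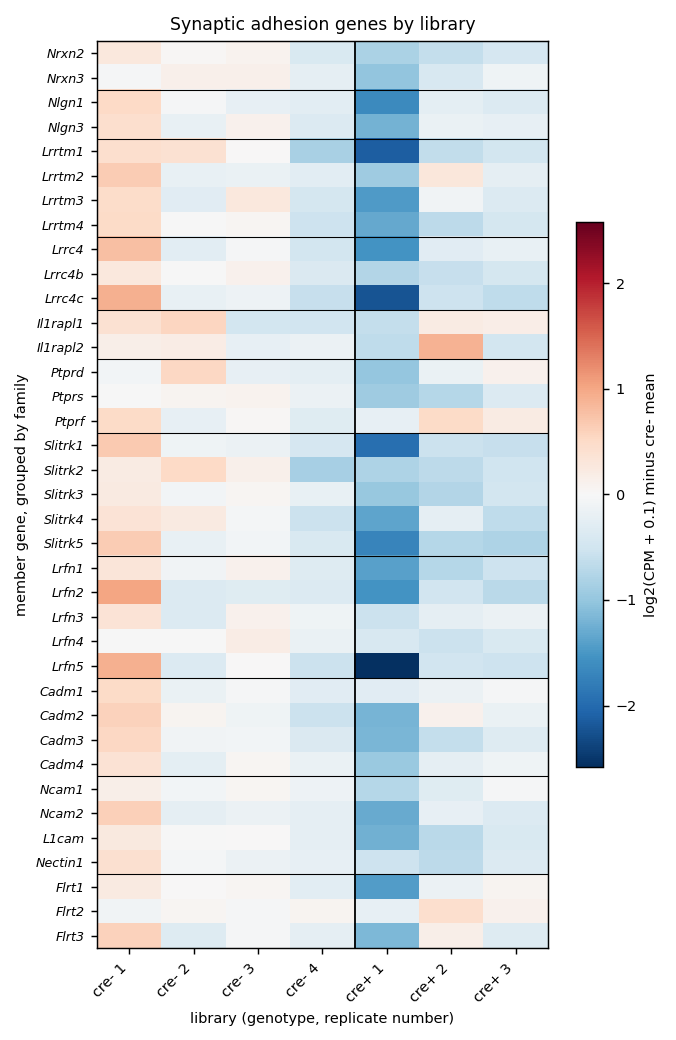
Level of each of the 37 members (rows, grouped by family) in each library (columns, genotype and replicate number), as log2(CPM + 0.1) minus the mean of the 4 cre- libraries, in color, after TMM scaling. The column of cre+ replicate 1 is the lowest for 33 members, and the column of cre- replicate 1 is the highest for 28.

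The tools differed in what they called. The quasi-likelihood test of edgeR, with Benjamini-Hochberg adjustment over 21542 genes, called 0 members and 0% of all genes at an adjusted p under 0.05, and the members' adjusted p ran from 0.0939 to 0.948. At an unadjusted p under 0.05, 16 members were lower (9.75% of all genes) and 0 were higher (10.2%). DESeq2, the test the study used, gave an adjusted p to 36 members and called 8 of them lower, where 5.48% of 16345 genes were called lower. It called 0 members higher, where 6.7% of those genes were called higher. The 8 were Slitrk3, Ptprs, Lrfn4, Nrxn2, Lrrc4b, Lrfn1, L1cam and Slitrk5. Their adjusted p ran from 0.00156 to 0.0167 in DESeq2 and from 0.0939 to 0.131 in edgeR.

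The members left uncalled did not all have smaller fold changes. Of the members that DESeq2 did not call, 16 had an edgeR log2 fold change at or beyond the smallest one among the 8 called. Their edgeR standard errors ran from 0.17 to 0.55, while those of the called members ran from 0.11 to 0.32.

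Of the presynaptic organizers, Nrxn2 and Ptprs were called lower by DESeq2. Nrxn2 (ENSMUSG00000033768, chr19:6468761-6594199, plus strand, GRCm39) encodes neurexin 2, and its exons overlap those of Slc22a12 and of a predicted noncoding gene on the opposite strand. It was at 123, 140.4 and 159.7 CPM in cre+ replicates 1 to 3 and at 261, 221, 229 and 165 CPM in cre- replicates 1 to 4. The genotypes did not overlap, though cre- replicate 4 stood close to cre+ replicate 3. The cre+ mean was 141 ± 18.6 CPM (SD, n = 3), the cre- mean was 219 ± 40.0 CPM (SD, n = 4), and their log2 fold change was -0.64 ± 0.17 (SE). The adjusted p was 0.0111 in DESeq2 and 0.104 in edgeR. Nrxn3, the other neurexin of the list, had a log2 fold change of -0.47 ± 0.20 and overlapped between genotypes.

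Ptprs (ENSMUSG00000013236, chr17:56719426-56783483, minus strand, GRCm39) encodes a LAR-type phosphatase, PTP sigma, which also binds proteoglycans of the matrix. It held the most counts of all members and made up 26.6% to 34.3% of the summed CPM of the 37 genes. Its level was 536, 609.6 and 793 CPM in cre+ replicates 1 to 3 and 998, 1054, 1079 and 907 CPM in cre- replicates 1 to 4. All cre+ libraries were below all cre- libraries, with cre+ replicate 3 nearest to them. The log2 fold change was -0.64 ± 0.16 (adjusted p = 0.00253 in DESeq2 and 0.0988 in edgeR). The other phosphatases differed from it in value. Ptprd had -0.32 ± 0.28, and Ptprf, which encodes LAR itself, had 0.16 ± 0.22 with cre+ libraries at 55.9 to 91.7 CPM inside and just above the cre- range of 52.0 to 91.1 CPM.

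Neither neuroligin was called. Nlgn1, the neuroligin of excitatory synapses, was at 5.43, 14.3 and 13.4 CPM in cre+ and at 24.4, 16.8, 14.6 and 14.1 CPM in cre- libraries. The lowest library was cre+ replicate 1 and the highest cre- replicate 1, and the genotypes overlapped, with cre+ replicate 2 above cre- replicate 4. Its log2 fold change was -0.66 ± 0.34 (adjusted p = 0.199 in DESeq2 and 0.32 in edgeR), and that of Nlgn3 was -0.49 ± 0.28.

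The 4 LRRTM genes, whose products bind neurexins at excitatory synapses, had log2 fold changes from -1.0 to -0.26, and none was called. Lrrtm4 was at 4.95, 7.74 and 9.03 CPM in cre+ and at 17.5, 12.3, 12.9 and 8.56 CPM in cre- libraries. A single pair of libraries overlapped, as cre+ replicate 3 was above cre- replicate 4. Its log2 fold change was -0.82 ± 0.29 (adjusted p = 0.0532 in DESeq2 and 0.178 in edgeR). Lrrtm1 had the lowest value of the family, -1.0 ± 0.44, and Lrrtm3 had -0.57 ± 0.35. Lrrtm2, whose exons overlap those of Ctnna1 on the opposite strand, had -0.26 ± 0.32.

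The netrin-G ligands are leucine-rich repeat proteins of the postsynaptic membrane, and Lrrc4b, which encodes NGL-3, was called lower by DESeq2. Lrrc4b (ENSMUSG00000047085, chr7:44078442-44112775, plus strand, GRCm39) was at 65.8, 73.1 and 80.8 CPM in cre+ and at 133, 109.7, 120.1 and 85.6 CPM in cre- libraries. The cre+ libraries stood close together and below cre- replicate 4, the lowest of the others. The log2 fold change was -0.61 ± 0.15 (adjusted p = 0.0113 in DESeq2 and 0.101 in edgeR). Lrrc4c, which encodes NGL-1, had the lowest value of all members, -1.08 ± 0.47. It was not called, with cre+ libraries at 4.95 to 16.4 CPM and cre- libraries at 15.7 to 44.5 CPM.

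SLITRK proteins bind the LAR-type phosphatases from the postsynaptic side, and the 5 genes had the narrowest range of the families with 4 or 5 members, from -1.08 to -0.73. Slitrk3 (ENSMUSG00000048304, chr3:72954598-72965136, minus strand, GRCm39) is known as an organizer of inhibitory synapses, and it had the smallest edgeR p of all members. Its level was 19.6, 22.9 and 27.8 CPM in cre+ replicates 1 to 3 and 45.3, 36.8, 39.9 and 34.0 CPM in cre- replicates 1 to 4. The genotypes did not overlap, and the gap lay between cre+ replicate 3 and cre- replicate 4. The cre+ mean was 23.4 ± 4.12 CPM (SD, n = 3) and the cre- mean was 39.01 ± 4.81 CPM (SD, n = 4). This gave a log2 fold change of -0.74 ± 0.15 (adjusted p = 0.00156 in DESeq2 and 0.0939 in edgeR).

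Slitrk5 (ENSMUSG00000033214, chr14:111912529-111920573, plus strand, GRCm39) had the largest fold change of the called members, -1.08 ± 0.32. It was at 5.34, 10.5 and 10.0 CPM in cre+ and at 27.5, 15.2, 16.7 and 13.3 CPM in cre- libraries. The genotypes did not overlap, and the first replicate of each stood at the far end. The adjusted p was 0.0167 in DESeq2 and 0.131 in edgeR. Slitrk1 also showed no overlap, with 7.60, 20.002 and 19.5 CPM in cre+ and 47.0, 27.2, 26.5 and 21.8 CPM in cre- libraries. Its log2 fold change of -0.96 ± 0.38 was not called (adjusted p = 0.0666 in DESeq2 and 0.208 in edgeR), nor were those of Slitrk2 (-0.74 ± 0.31) and Slitrk4 (-0.73 ± 0.32).

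Of the SALM genes, whose products associate with postsynaptic scaffolds or bind the phosphatases, DESeq2 called Lrfn1 and Lrfn4 lower. Lrfn1 (ENSMUSG00000030600, chr7:28151405-28167667, plus strand, GRCm39), which encodes SALM2, was at 9.47, 14.96 and 17.3 CPM in cre+ and at 31.1, 23.5, 27.1 and 19.8 CPM in cre- libraries. No cre+ library reached the cre- range. The log2 fold change was -0.87 ± 0.23 (adjusted p = 0.0118 in DESeq2 and 0.112 in edgeR). Lrfn4 (ENSMUSG00000045045, chr19:4661813-4665695, minus strand, GRCm39), which encodes SALM3, was at 52.2, 47.4 and 53.0 CPM in cre+ and at 69.2, 69.2, 79.3 and 61.3 CPM in cre- libraries. It is a called member in which cre+ replicate 1 was not the lowest library, and it had the smallest standard error, with a log2 fold change of -0.46 ± 0.11 (adjusted p = 0.00925 in DESeq2 and 0.0983 in edgeR). Its exons overlap those of Pcx, a metabolic gene on the opposite strand.

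The other SALM genes were not called. Lrfn2, which encodes SALM1, did not overlap between genotypes, with 2.09, 4.42 and 3.85 CPM in cre+ and 12.8, 4.87, 5.05 and 4.91 CPM in cre- libraries. The library far above the rest was cre- replicate 1, and the log2 fold change was -1.0 ± 0.44 with it and -0.52 without it. Lrfn5 had -1.06 ± 0.55, the largest standard error among members below 0, and Lrfn3 had -0.33 ± 0.20.

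None of the SynCAM genes was called, and their log2 fold changes ran from -0.71 to -0.18. Cadm3 was at 63.0, 94.2 and 113 CPM in cre+ and at 209, 135, 136 and 110.2 CPM in cre- libraries. The cre+ libraries were all below 3 of the 4 cre- libraries. Its log2 fold change was -0.71 ± 0.25 (adjusted p = 0.0587 in DESeq2 and 0.184 in edgeR). Cadm4 had -0.41 ± 0.22, Cadm2 had -0.38 ± 0.34 and Cadm1 had -0.18 ± 0.18.

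L1cam (ENSMUSG00000031391, chrX:72897384-72939711, minus strand, GRCm39), which encodes an axonal adhesion molecule of the immunoglobulin superfamily, was called lower by DESeq2. Its exons overlap those of Arhgap4 on the same strand, so reads of the overlap cannot be assigned by strand. It was at 37.8, 55.3 and 68.0 CPM in cre+ and at 106, 88.4, 89.995 and 76.2 CPM in cre- libraries. The genotypes did not overlap, and cre+ replicate 3 and cre- replicate 4 bordered the gap. The log2 fold change was -0.75 ± 0.20 (adjusted p = 0.0119 in DESeq2 and 0.107 in edgeR). Nectin1, which binds nectin 3 at the contacts of mossy fibers in the hippocampus, was at 29.0, 26.3 and 32.9 CPM in cre+ and at 56.2, 40.3, 37.8 and 36.2 CPM in cre- libraries. These did not overlap either, but the log2 fold change of -0.54 ± 0.17 was not called (adjusted p = 0.0556 in DESeq2 and 0.15 in edgeR). Ncam1 and Ncam2 had -0.34 ± 0.16 and -0.60 ± 0.30.

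**Figure D2:**
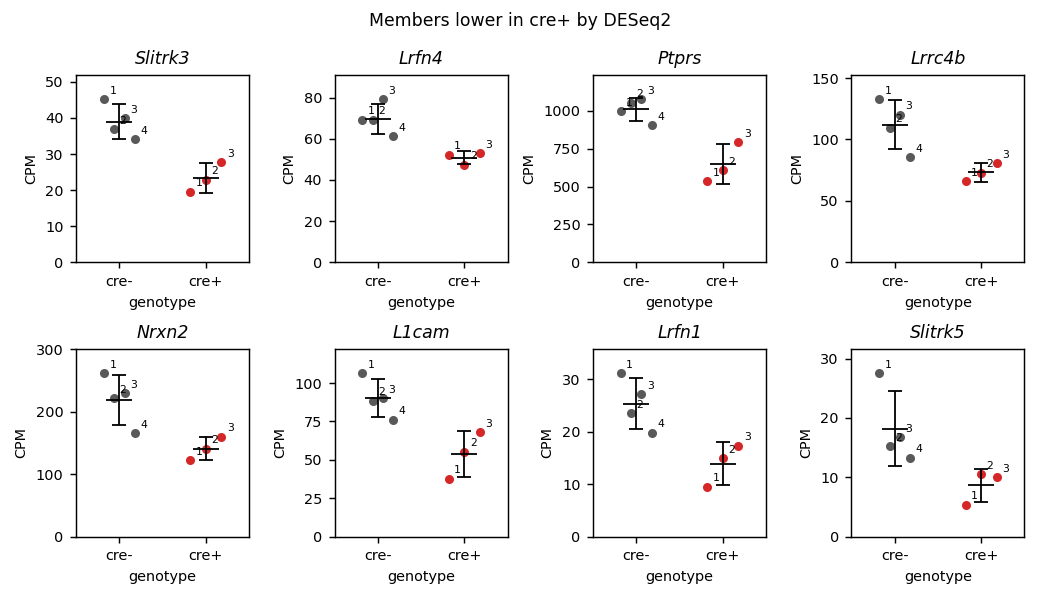
CPM (vertical axes, from 0) of the 8 members that DESeq2 called lower, in cre- (gray) and cre+ (red) libraries, with a point for each library, its replicate number beside it, and the mean and SD as bars. In each panel all cre+ points lie below all cre- points, and cre- replicate 4 is the cre- point nearest to them. CPM are TMM-scaled, and none of the 8 was called lower after scaling to pan-neuronal genes.

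The IL1RAPL and FLRT families had 0 called members, and 2 of the 3 members with a log2 fold change above 0, Il1rapl2 and Flrt2, belong to them. Il1rapl1, an organizer that binds PTP delta, was at 2.61, 4.71 and 4.59 CPM in cre+ and at 5.41, 6.05, 2.92 and 2.87 CPM in cre- libraries. The genotypes overlapped widely, and the log2 fold change was -0.12 ± 0.37 (adjusted p = 0.893 in edgeR). Il1rapl2 was the scarcest member, at 0.384 to 1.32 CPM in cre+ and 0.556 to 0.773 CPM in cre- libraries, with a log2 fold change of 0.10 ± 0.57. DESeq2 gave it no adjusted p. Flrt1 was at 9.81, 24.1 and 28.3 CPM in cre+ and at 31.3, 26.9, 27.6 and 22.2 CPM in cre- libraries. Its cre+ replicate 1 was far below the rest, the other cre+ libraries lay within the cre- range, and the log2 fold change was -0.38 ± 0.32. Flrt3 had -0.40 ± 0.34. Flrt2 had 0.12 ± 0.14, with cre+ libraries at 76.6 to 119.6 CPM around cre- libraries at 83.2 to 94.0 CPM.

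To compare genes with one another, levels were divided by exonic length. In the cre- libraries the mean level ran from 81.7 CPM per kb of exon for Cadm4 to 0.0998 for Il1rapl2, with a median of 4.53 over the members. After Cadm4 came Ptprs at 59.2, Ncam1 at 36.6 and Lrrc4b at 24.6 CPM per kb. Neuroligin 1 stood at 1.24 CPM per kb, below neurexins 2 and 3 at 15.9 and 14.1. By this level the called members ranked 2, 4, 6, 7, 9, 12, 18 and 30 of the 37. They ran from Ptprs down to Slitrk5 at 1.89 CPM per kb, and no member ranked below Slitrk5 was called. In the cre+ libraries Cadm4 was at 61.4, Ptprs at 37.9 and Slitrk5 at 0.893 CPM per kb.

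**Figure D3:**
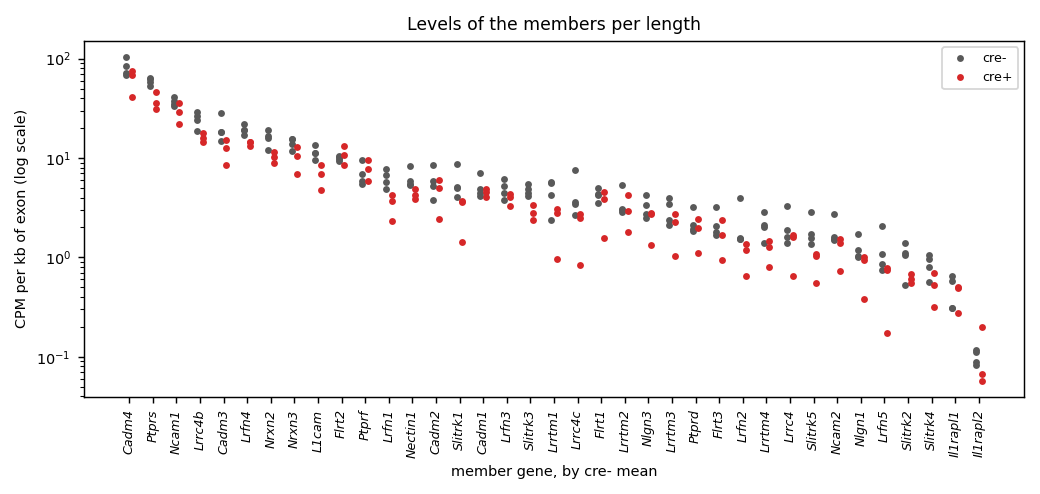
Level of each member in CPM per kb of exon (vertical axis, log scale) in each cre- (gray) and cre+ (red) library, with genes ordered by their cre- mean. The order runs from Cadm4 at 81.7 to Il1rapl2 at 0.0998 CPM per kb, and the cre+ mean lies above the cre- mean for Flrt2, Ptprf and Il1rapl2.

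The promoters were read for shared sequence features, and a part of these in the lower levels was not tested. RefSeq windows on GRCm38.p6, an earlier build than that of the counts, span 250 bases before to 50 after a start, and 26 of the 37 symbols had 33 such windows, some of them overlapping. The windows of members were rich in CpG, with a median of 14 CpG dinucleotides against 7 over all 32851 windows. The GC box GGGCGG, searched on both strands like the motifs that follow, was present in 39.4% of member windows and 35.7% of all windows. It was present in 5 of the 8 windows that belong to 6 of the called members. The windows of L1cam among these overlap and share a box, so that box was counted in both. The E-box CACGTG was present in 12.1% and 7.15%, the cAMP response element TGACGTCA in 6.06% and 1.79%, the TATA box TATAAA in 3.03% and 13.6%, and TTCAGCACC, the left part of the RE1 element that the repressor REST binds, in 3.03% and 0.371%. No motif contains another, and with 33 windows, 3.03% is 1 window. Those shares describe letters in these windows and say nothing of binding.

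The windows of 3 members are shown, namely Slitrk3, with the smallest p, Lrfn4, with the smallest standard error, and Flrt2, which was not lower. Capitals mark the GC boxes, which read CCGCCC where they lie on the other strand. Slitrk3 is from chr3:73057017-73057316 (minus strand) and has 0 boxes, Lrfn4 is from chr19:4615618-4615917 (minus strand) and has 2, and Flrt2 is from chr12:95691976-95692275 (plus strand) and has 0.
Slitrk3: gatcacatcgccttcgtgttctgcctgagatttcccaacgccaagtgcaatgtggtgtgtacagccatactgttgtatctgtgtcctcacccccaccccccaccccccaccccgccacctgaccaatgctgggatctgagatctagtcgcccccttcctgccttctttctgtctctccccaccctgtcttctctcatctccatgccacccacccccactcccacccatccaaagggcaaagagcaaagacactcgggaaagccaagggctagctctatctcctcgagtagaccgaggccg
Lrfn4: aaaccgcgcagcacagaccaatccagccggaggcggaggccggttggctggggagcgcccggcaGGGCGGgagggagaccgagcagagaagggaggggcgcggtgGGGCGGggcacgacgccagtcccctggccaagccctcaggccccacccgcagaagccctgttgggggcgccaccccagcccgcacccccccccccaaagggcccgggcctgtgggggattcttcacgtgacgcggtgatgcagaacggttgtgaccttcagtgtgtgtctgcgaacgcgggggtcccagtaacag
Flrt2: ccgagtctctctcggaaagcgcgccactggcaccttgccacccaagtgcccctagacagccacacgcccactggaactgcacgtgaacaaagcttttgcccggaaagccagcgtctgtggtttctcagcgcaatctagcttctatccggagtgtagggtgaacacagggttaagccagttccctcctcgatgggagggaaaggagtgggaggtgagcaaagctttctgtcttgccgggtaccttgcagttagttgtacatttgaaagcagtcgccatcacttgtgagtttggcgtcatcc
The boxes were present in the window of 1 of these called members, and Slitrk3 and Flrt2 had the same number.

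The members moved with the general level of neuronal transcripts. Relative to the cre- mean, the members' mean log2(CPM + 0.1) was -1.13, -0.30 and -0.31 in the cre+ libraries, taken in replicate order, and 0.40, -0.04, -0.02 and -0.34 in the cre- libraries. In the same order, the pan-neuronal genes had -1.30, -0.47 and -0.32 in the cre+ libraries against 0.35, -0.10, 0.07 and -0.32 in the cre- libraries. For endothelial markers the values were 0.98, 0.41 and 0.44 against -0.11, -0.13, -0.09 and 0.34. So cre+ replicate 1 was lowest in both neuronal lists and highest in endothelial markers, and cre- replicate 4 was the cre- library nearest to cre+ in all 3 lists. Other non-neuronal lists did not all follow the endothelial one. In cre+ replicate 1, oligodendrocyte (-0.57), oligodendrocyte precursor (-0.57) and ependymal (-0.52) markers were below the cre- mean. Mural (0.71), meningeal fibroblast (0.44), astrocyte (0.64) and microglia (0.59) markers were above it. By summed CPM of the members the cre+ group had 2194 ± 469.8 (SD, n = 3) and the cre- group 3133 ± 388.6 (SD, n = 4). The sum over the members divided by the sum over the pan-neuronal genes was 0.788, 0.678 and 0.671 in the cre+ libraries and 0.645, 0.717, 0.667 and 0.716 in the cre- libraries, and the genotypes overlapped.

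**Figure D4:**
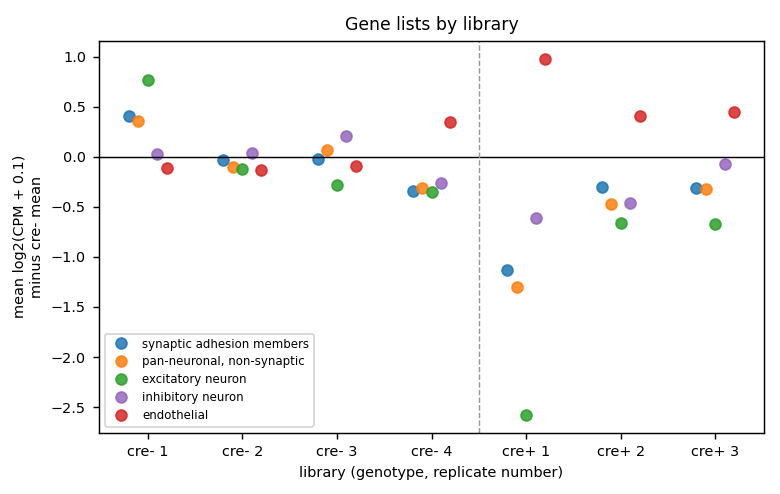
Mean log2(CPM + 0.1) of 5 gene lists in each library (horizontal axis, genotype and replicate number), minus the mean of the 4 cre- libraries (vertical axis). The members (blue) lie close to the pan-neuronal genes (orange) in every library, and endothelial markers (red) run the other way, from -0.13 in cre- replicate 2 to 0.98 in cre+ replicate 1.

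Genes of other marker lists were called as well, where DESeq2 called 5.48% of all genes lower and 6.7% higher. DESeq2 called 6 of 20 pan-neuronal genes lower, led by Nefh (-0.87 ± 0.16) and Ina (-0.72 ± 0.19), and 3 of 5 excitatory and 2 of 5 inhibitory neuron markers. The summed level of the excitatory markers was 53.1 to 226 CPM in cre+ and 230.3 to 542 CPM in cre- libraries, and that of the inhibitory markers was 620.3 to 924 CPM and 924 to 1284 CPM. On the higher side it called 11 of 15 endothelial markers, led by Slc2a1 (1.0 ± 0.20), 7 of 11 mural, 4 of 9 meningeal fibroblast, 4 of 10 astrocyte, 2 of 10 oligodendrocyte, 1 of 7 oligodendrocyte precursor, 1 of 6 ependymal and 0 of 9 microglia markers. No list had a marker at 0 in all libraries. The part of cell composition in the lower levels of the adhesion genes was not tested.

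The counts were also scaled so that the pan-neuronal sum was equal in every library. On that scale the median log2 fold change of the members was -0.03, against 0.57 over all tested genes, and 19 members were below 0 and 18 above. The values ran from -0.56 for Lrfn5 to 0.75 for Ptprf, and 30 of the 37 were under 0.5 in size. Shares of all tested genes for these counts are not given. The 8 called members ran from -0.51 for Slitrk5 to 0.17 for Lrfn4, with Slitrk3 at -0.15 ± 0.27, Ptprs at -0.08 ± 0.31 and Nrxn2 at -0.03 ± 0.28. DESeq2 then called 0 members lower (0.388% of all genes) and 1 higher (27.9%), which was Ptprf, with an adjusted p of 0.0279. edgeR called 0 lower (0.144%) and 0 higher (7.79%) at an adjusted p under 0.05. At an unadjusted p under 0.05 it had 0 lower (1.23%) and 2 higher (32.7%), Ptprf and Flrt2. When the mean log2 count of the same genes took the place of their sum, as was decided with the data in view, DESeq2 called 0 lower (0.217%) and 2 higher (37.7%), Ptprf and Flrt2. Thus the direction of the members depended on the scaling, and on the neuronal scale no member was called lower. The pan-neuronal genes differ between genotypes themselves, so that scale removes whatever the neuronal transcripts share.

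**Figure D5:**
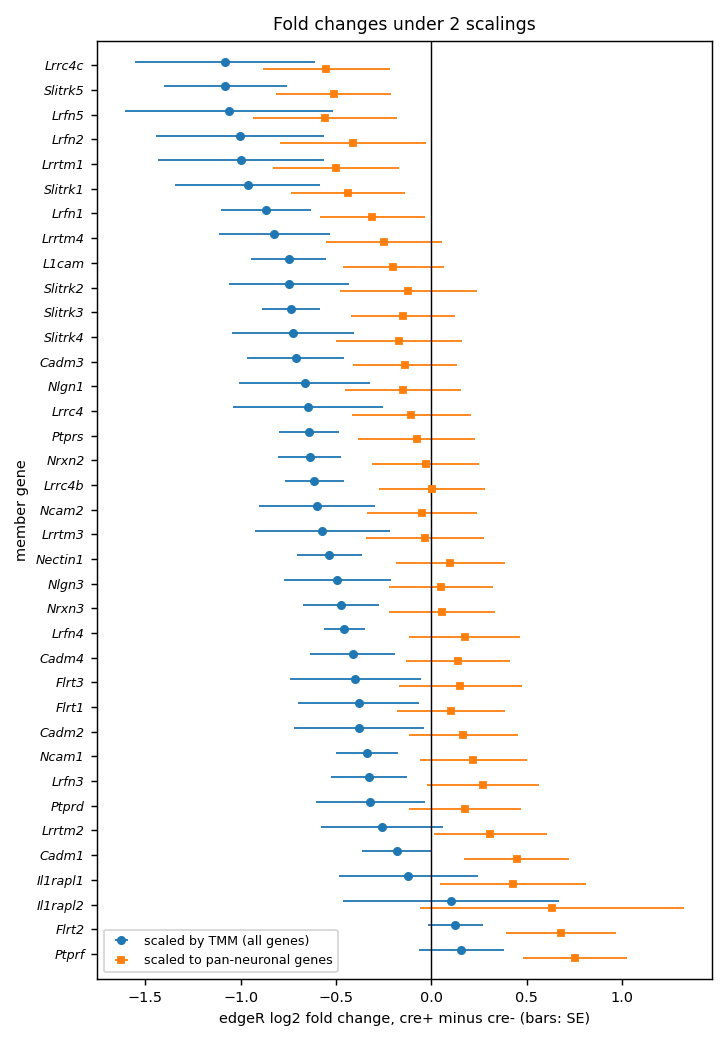
Log2 fold change (cre+ minus cre-, edgeR, horizontal axis) of each member with its SE as a bar, after TMM scaling (blue circles) and after scaling to the pan-neuronal genes (orange squares). The blue values run from -1.08 to 0.16 and the orange ones from -0.56 to 0.75, shifted to the right for every gene.

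The calls also depended on single libraries. Without cre+ replicate 1 DESeq2 called 3 members lower (2.19% of all genes), Slitrk3, Ptprs and Lrfn4, and the median log2 fold change of the members was -0.34. Without cre+ replicate 2 it called 4 (2.7%), Slitrk3, Ptprs, Slitrk5 and Lrfn1, and without cre- replicate 3 it called 4 (2.34%), with L1cam in the place of Lrfn1. Without cre- replicate 4 it called 15 (6.74%), and these included all 8. Slitrk3 and Ptprs were the 2 members called whichever single library was left out. The share of all genes called in every omission was not computed, and neither gene was called lower after scaling to pan-neuronal genes. With the replicate number as a block, though the numbers did not pair the libraries, DESeq2 called 9 members lower (3.71%). With the first replicate of each genotype left out together, which was also decided with the data in view, 3 members were called lower (3.41%), again Slitrk3, Ptprs and Lrfn4. Ptprf was then called higher (3.74%), with a log2 fold change of 0.52 and an adjusted p of 0.0394 in DESeq2.

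Of 66 further genes of synaptic adhesion and organization, 57 had an edgeR log2 fold change below 0, where 54% of all tested genes did. The genes were listed by family, and their median was -0.51 against -0.04 over all tested genes. Values after scaling to pan-neuronal genes are not given for them. DESeq2 called 7 of the 66 lower (5.48% of all genes) and 2 higher (6.7%). The lower ones were Nlgn2, the neuroligin of inhibitory synapses (-0.52 ± 0.15), the neurexin ligands Cbln2 (-0.96 ± 0.29) and C1ql2 (-1.72 ± 0.60), the immunoglobulin genes Sdk2 (-0.49 ± 0.15), Dscaml1 (-0.50 ± 0.16) and Igsf9b (-0.83 ± 0.28), and the cadherin Cdh9 (-1.20 ± 0.42). The higher ones were Dag1, which encodes dystroglycan and is also expressed in vessel walls and glia (0.48 ± 0.14), and Lrrn3 (0.52 ± 0.16). By subgroup, the 12 secreted and calsyntenin partners of neurexins had a median of -0.74 with 2 called lower, the 12 contactins and relatives had -0.57 with 0 called, and the 4 teneurins had -0.45 with 0 called. The 15 other nectins and synaptic immunoglobulin genes had -0.49 with 3 called lower, and the 16 cadherins and others had -0.33 with 1 called lower and 2 higher. The 5 MDGA and glypican genes, regulators of these adhesion pairs, had a median of 0.54 with 0 called.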

How the data were processed

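RNA sequencing libraries from neurons isolated from il4ra fl/fl.Syn cre+ (n = 3) and cre- (n = 4) mice were grouped by the genotype in their labels. Littermate mice are the replicates in the study. According to its methods and the processing notes, reads were trimmed by fastp and aligned by STAR to GRCm39, alignments were filtered by SAMtools, and StringTie gave the gene counts that the authors then passed to DESeq2. No source used here names versions or the annotation. The deposited values used are raw counts, whole numbers for each gene. The authors' normalized files were not used. The 49 repeats of a symbol among 46382 rows were dropped.

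Genotypes were compared by edgeR 4.0.16 (R 4.3.3) with its quasi-likelihood F-test (TMM factors, filterByExpr, robust estimation) over 21542 genes. DESeq2 1.42.0 took the 29539 genes with a count in any library, its independent filter set to 0.05. Both used Benjamini-Hochberg adjustment and a threshold of 0.05, with limma-voom 3.58.1 as an alternative. CPM are counts scaled by library size with TMM factors. Errors are standard errors unless marked SD. For edgeR they were derived from the test, as the size of the log2 fold change divided by the square root of F. Log2 levels use a pseudocount of 0.1 CPM. Depth was 68213223 to 94376841 counts per library, and the lowest count of a member was 33.

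The members and all gene lists were chosen with earlier results of these data known. Any member may be named. Values in every library were given for members called by either tool, for the member with the smallest edgeR p in each family, and for members without overlap and a log2 fold change of at least 0.5 in size. Other genes are named where DESeq2 called them with the smallest p of their list, besides Il4ra. Alternatives covered scaling, filters, tools, a replicate block and leaving out libraries. The column headers carry codes that the sources do not explain, with letters not shared between genotypes, so a batch they might mark and the genotype cannot be told apart. No library pair within a genotype agreed within counting noise.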

Additional observations from a re-analysis of the deposited data

Results flagged for a closer look

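In 3 of the 37 members, the highest cre- library stood apart from the other 3 of its genotype by Dixon's criterion, and in each it was cre- replicate 1. It had 32.8 CPM of Lrrtm2 against 17.2 to 18.6 CPM in the others, 12.8 CPM of Lrfn2 against 4.87 to 5.05 CPM, and 35.6 CPM of Ncam2 against 19.8 to 21.1 CPM. Chance flags about 1 in 20 groups, the members share their libraries, and the cause was not tested.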

How the results depend on the processing

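DESeq2 called 8 members lower, where it called 5.48% of all genes lower. That count was 0 after scaling to the sum (0.388%) or the mean log2 count (0.217%) of the pan-neuronal genes. It was 3 with both first replicates left out (3.41%), and 3 to 15 when single libraries were left out. Without cre+ replicate 1 it was lowest (2.19%), and it was 4 without cre+ replicate 2 (2.7%) or cre- replicate 3 (2.34%). Without cre- replicate 4 it was 15 (6.74%). It was 7 without cre- replicate 1 or 2, and 12 without cre+ replicate 3. The share of all genes called lower is not given for the omissions with 7 or 12, so these counts cannot be set against it. The count called higher was 1 (27.9% of all genes) after scaling to the sum and 2 (37.7%) after scaling to the mean log2 count. It was 1 (3.74%) with both first replicates left out. In edgeR the count was 0 under every scaling, filter and omission, against 8 in DESeq2. The median log2 fold change of the members was -0.34 to -0.69 without single libraries, -0.03 after scaling to the pan-neuronal sum, 0.10 after scaling to their mean log2 count and -0.23 with both first replicates left out. The replicate numbers did not pair the samples (correlations of same-numbered deviations from -0.03 to 0.09, and not every library correlated best with its own number). With a replicate block the median was -0.71 and DESeq2 called 9 members lower, where 3.71% of all genes were called lower. The cause of these changes was not tested.

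Log2 fold changes of single members turned in sign as follows. Scaled to the pan-neuronal sum they were Nrxn3 0.056, Nlgn3 0.049, Lrrtm2 0.31, Lrrc4b 0.0028, Il1rapl1 0.43, Ptprd 0.18, Lrfn3 0.27, Lrfn4 0.17, Cadm1 0.45, Cadm2 0.17, Cadm4 0.14, Ncam1 0.22, Nectin1 0.10, Flrt1 0.10 and Flrt3 0.15. Scaled to the mean log2 count, an alternative chosen after the data were seen, they were Nrxn2 0.10, Nrxn3 0.17, Nlgn3 0.16, Lrrtm2 0.42, Lrrtm3 0.075, Lrrc4 0.0091, Lrrc4b 0.13, Il1rapl1 0.54, Ptprd 0.28, Ptprs 0.048, Slitrk2 0.0074, Lrfn3 0.40, Lrfn4 0.31, Cadm1 0.58, Cadm2 0.28, Cadm4 0.26, Ncam1 0.34, Ncam2 0.068, Nectin1 0.24, Flrt1 0.21 and Flrt3 0.26. With both first replicates left out, chosen likewise, they were Lrrtm2 0.27, Lrrc4 0.0050, Il1rapl1 0.23, Cadm1 0.073, Cadm2 0.15, Flrt1 0.034 and Flrt3 0.12. Without cre+ replicate 1 the value was Il1rapl1 0.10, without cre+ replicate 2 the values were Il1rapl2 -0.68, Ptprf -0.026 and Flrt2 -0.050, without cre- replicate 1 they were Lrrtm2 0.013, Il1rapl1 0.0094 and Cadm1 0.013, and without cre- replicate 2 the value was Il1rapl1 0.086. The range over single omissions was -0.59 to 0.013 for Lrrtm2, -0.27 to 0.10 for Il1rapl1, -0.68 to 0.40 for Il1rapl2, -0.026 to 0.35 for Ptprf, -0.28 to 0.013 for Cadm1 and -0.050 to 0.27 for Flrt2. Il1rapl2 was -0.0038 with library totals, -0.17 with a replicate block and -0.17 in limma-voom. Depth limits Il1rapl2, with 33 counts in its lowest library.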
